A study of Mus musculus with 4 samples.

Results

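Deubiquitinases are the proteases that remove ubiquitin from proteins, and the genes described here are the 44 mouse genes with a deubiquitinase family name that carried at least 1 N6-methyladenosine (m6A) site in the heart. They were taken from the 6660 genes with a site in either list by their symbols, namely the numbered Usp genes, Uspl1, and the Otud, Otub, Stambp, Uchl, Josd, Atxn3, Cyld, Tnfaip3, Zranb1, Bap1 and Brcc3 names. The study compared hearts of ABRO1 Knockout mice with hearts of wild type mice, all with a C57BL/6 strain background. Each genotype had 2 libraries, 1 immunoprecipitate with an anti-m6A antibody and 1 input without it, and 1 list of sites was made from each such pair. The labels used here do not give the age, sex or number of the mice, how the knockout was made, or any other allele or treatment. ABRO1, now Abraxas2, is the scaffold of a complex built around the deubiquitinase Brcc3, which is why the family is of interest in this series. The 44 genes held 76 of 10814 sites in the wild-type list and 81 of 10388 sites in the knockout list. With 1 list per genotype there was no replicate and no test between genotypes, and a difference below is a difference between 2 lists. No read counts were used, so a methylation difference and a difference in the amount of RNA or in depth cannot be told apart.

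Ubiquitin is attached to lysines of target proteins, alone or in chains whose linkage decides between degradation, trafficking and signalling. Deubiquitinases cut these links and fall into families by the fold of their catalytic domain: ubiquitin-specific proteases (USP), ovarian tumour proteases (OTU), ubiquitin C-terminal hydrolases (UCH), Josephins, and the zinc-dependent JAMM proteases to which Brcc3 belongs. m6A is laid down on mRNA by a methyltransferase complex, mostly near stop codons and in long exons, and influences splicing, stability and translation. Anti-m6A antibodies also bind the related cap-adjacent nucleotide m6Am.

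As a check of the tissue label, 5 of 10 cardiomyocyte markers carried sites, Ttn, Ryr2, Tnnt2, Nkx2-5 and Trdn, each in both lists. The others, Myh6, Tnni3, Actc1, Mybpc3 and Pln, had none in the lists used here, and a missing site does not show a missing RNA. Sites also lay in 4 of 6 fibroblast, 4 of 5 endothelial, 1 of 4 macrophage, 2 of 4 smooth muscle and pericyte, 2 of 3 skeletal muscle and 0 of 2 neuronal markers. Among these, Col3a1 and Tcf21 were listed for the wild type alone, and Flt1 and Ckm for the knockout alone. The part of these cell types in the results below was not tested.

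For 32 of the 44 genes the RefSeq promoter table gave transcript starts, and at 9 of these genes a site began exactly on the first base of a transcript. The sequences around these starts are printed because they show where the edge of the called interval falls. Each line gives 50 bases before the start in lower case and the first 30 bases of the called site in capitals, 5′ to 3′ on the strand of the gene, from the RefSeq promoter table of GRCm38.p6.
Usp8 (chr2:126707278-126707357, plus strand, both lists): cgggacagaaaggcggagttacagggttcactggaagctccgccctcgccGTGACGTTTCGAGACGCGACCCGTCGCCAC
Usp47 (chr7:112023456-112023535, plus strand, both lists): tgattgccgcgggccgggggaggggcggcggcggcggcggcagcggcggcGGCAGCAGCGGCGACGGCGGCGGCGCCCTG
Usp49 (chr17:47630640-47630719, plus strand, both lists): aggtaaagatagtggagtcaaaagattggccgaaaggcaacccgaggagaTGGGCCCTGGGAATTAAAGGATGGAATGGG
Usp30 (chr5:114100283-114100362, plus strand, both lists): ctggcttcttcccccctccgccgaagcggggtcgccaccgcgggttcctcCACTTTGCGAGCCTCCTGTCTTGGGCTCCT
Usp25 (chr16:77014019-77014098, plus strand, both lists): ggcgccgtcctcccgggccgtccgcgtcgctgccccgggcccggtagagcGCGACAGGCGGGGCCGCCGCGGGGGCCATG
Usp28 (chr9:48985335-48985414, plus strand, knockout list): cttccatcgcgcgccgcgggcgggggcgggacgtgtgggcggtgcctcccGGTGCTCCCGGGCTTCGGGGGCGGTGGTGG
Usp40 (chr1:88008522-88008601, minus strand, knockout list): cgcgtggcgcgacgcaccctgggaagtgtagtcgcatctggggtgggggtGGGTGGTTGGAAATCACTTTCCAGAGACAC
Otud5 (chrX:7841781-7841860, plus strand, knockout list): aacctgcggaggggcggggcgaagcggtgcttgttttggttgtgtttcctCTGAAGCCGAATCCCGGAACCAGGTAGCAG
Cyld (chr8:88696978-88697057, plus strand, wild-type list): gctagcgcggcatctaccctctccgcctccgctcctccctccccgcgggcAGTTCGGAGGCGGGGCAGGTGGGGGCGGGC

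Exact agreement with an annotated start was about as frequent as over all genes. Among members with a row in the promoter table (32 of 44), it held for 6 of 56 wild-type and 8 of 58 knockout sites, against 12.1% and 12.7% of all such sites. How the edges were set is not given in the sources used here, and whether sites were trimmed to the annotation was not tested. The letters GGAC, the core of the usual m6A consensus, were searched on both strands of the 300-base promoter windows, from 250 bases before to 50 after the start. GGAC on the strand of the gene was present in 6 of these 9 windows, against 65.7% of all 32851 windows, and its reverse complement GTCC in 5 of 9, against 66.1%. Within the first 50 transcribed bases GGAC occurred in 0 of 9, against 18.9% of all windows, which says only that these letters are absent from that stretch; the sites run on beyond it in each case, with lengths from 72 bp (Cyld, Usp25) to 880 bp (Otud5).

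Most deubiquitinase genes with a site had one in both genotypes. Of the family, 34 of the 44 genes (77.3%, 95% interval 62.2 to 88.5) were found in both genotypes, 1 solely in the wild type and 9 solely in the knockout. Over all 6660 genes these shares were 74.4%, 14% and 11.6%. The single wild-type-only gene made 2.27% of the family (interval 0.0575 to 12) and the 9 knockout-only genes 20.5% (9.80 to 35.3). The first interval lay below the share over all genes and the second included it, but neither reading held in every setting. In lists of equal length the wild-type-only interval (0.0575 to 12.02) again lay below the share over all genes, 12.92%. With a score minimum of 100 the knockout-only interval (10.84 to 38.45) again included the share over all genes, 11.98%. Among sites with a score of 100 or more, the wild type alone had 2 of 40 members (5.0%, interval 0.611 to 16.9) against 14.5% of all genes, and among sites with a fold of 5 or more it had 4 of 43 (9.30%, 2.59 to 22.1) against 17.6%, so both intervals included the share over all genes. For the knockout alone, the lower bound came just above that share in lists of equal length (11 of 44 members, 13.19% against 13.05%) and with the fold minimum (9 of 43, 10.04% against 10.03%). RefSeq names 81 protein-coding genes that match the pattern, and 44 of them (54.3%) carried a site, against 29.5% of all 21900 protein-coding genes. A site can be called only where the RNA is present, and expression was not measured in these lists.

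**Figure D1:**
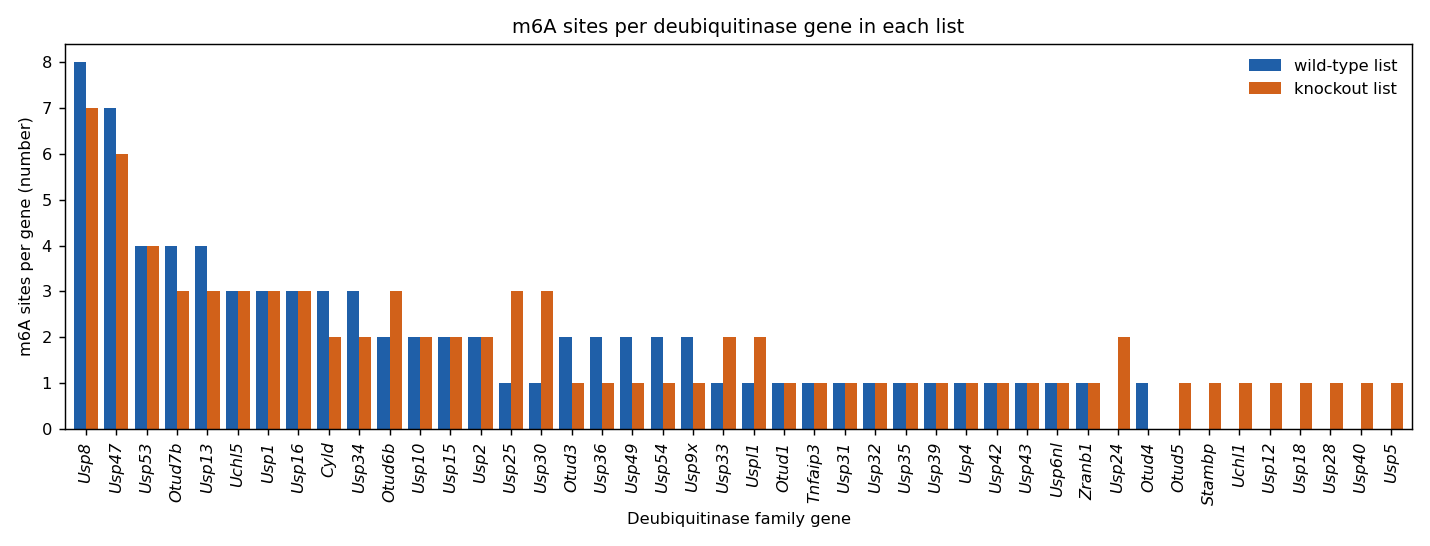
Number of m6A sites of each of the 44 deubiquitinase family genes, in the wild-type list (blue bars) and in the knockout list (orange bars). Usp8 leads with 8 and 7 sites, followed by Usp47 with 7 and 6, and the right end holds Otud4, listed in the wild type only, and the genes listed in the knockout only.

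The families were represented unevenly. Of 57 USP genes, 32 carried a site, 26 of them in both genotypes and 6 in the knockout alone. Of 12 OTU genes, 8 carried a site, 6 in both. Of 5 UCH genes, Uchl5 was marked in both genotypes and Uchl1 in the knockout alone. None of the 3 Josephin genes Atxn3, Josd1 and Josd2 had a site in the lists used here. Among the 3 JAMM genes, Stambp had a site in the knockout list, and Brcc3, the catalytic partner of the targeted scaffold, had none in either list, nor had Stambpl1. Usp6nl carries the name but is a GTPase-activating protein for Rab proteins, and it was counted apart, with 1 site in each list. Uspl1, counted with the USP genes, is a SUMO protease, and Usp39 is a splicing factor without protease activity. The 37 genes without a site in these lists included the p53 and Mdm2 regulator Usp7, the proteasome-bound Usp14, the SAGA subunit Usp22, the histone deubiquitinase Bap1, and Otub1, which inhibits ubiquitin-conjugating enzymes. The others, besides the Josephin and JAMM genes above, were Otub2, Otud6a, Otud7a, Uchl3, Uchl4, Usp3, Usp11, Usp17la, Usp17lb, Usp17lc, Usp17ld, Usp17le, Usp19, Usp20, Usp21, Usp26, Usp27x, Usp29, Usp37, Usp38, Usp44, Usp45, Usp46, Usp48, Usp50, Usp51 and Usp9y. Abraxas2 itself had 0 sites. The family member closest to it on chromosome 7 was Zranb1, whose span begins 46.1 kb after the end of Abraxas2.

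Usp8, which removes ubiquitin from receptors on endosomes and so decides between recycling and degradation, had the most sites of any member. It had 8 wild-type sites, with folds (immunoprecipitate over input, as the authors' peak caller gave them) of 20.8, 10.9, 7.15, 13.2, 13.7, 5.70, 6.73 and 49.8 in 5′ to 3′ order. The 7 knockout sites had folds of 20.4, 21.3, 5.93, 10.9, 11.3, 6.77 and 38.0. The lists thus placed the sites alike, apart from a weak wild-type site of fold 6.73 and score 59.9, at chromosome 2 from 126737859 to 126738082, which had no knockout counterpart. Scores are the caller's p on a scale of minus 10 times log10, on which stronger evidence stands higher. The highest site in both lists was the same interval of 558 bp, from 126742124 to 126742681 on the plus strand, at 67.6% of the gene span, with a score of 3100 in each. The second site, from 126717995 to 126718164, stood at 10.9 in the wild type and 21.3 in the knockout, a ratio of 1.96. It was the largest upward ratio among the identical sites of the family, while the other 5 identical Usp8 sites had a lower knockout fold.

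Usp47, a protease of DNA polymerase beta, had 7 wild-type and 6 knockout sites. Its wild-type folds were 15.1, 9.97, 5.33, 29.2, 5.35, 18.4 and 6.28 in 5′ to 3′ order. The corresponding knockout folds were 13.4, 8.92, 6.59, 21.4 and 13.7, with 2.71 at the last site and no counterpart of the wild-type site of fold 5.35. Of these, 5 wild-type and 4 knockout sites lay in part 4 of 5 equal parts of the gene, between 59.0 and 69.2 kb from its start. The last site, on chromosome 7 from 112108574 to 112108704, was the only identical site in the family whose fold was over 2 times lower in the knockout, by 2.32 times. Its scores went the other way, 53.7 in the wild type and 101 in the knockout.

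**Figure D2:**
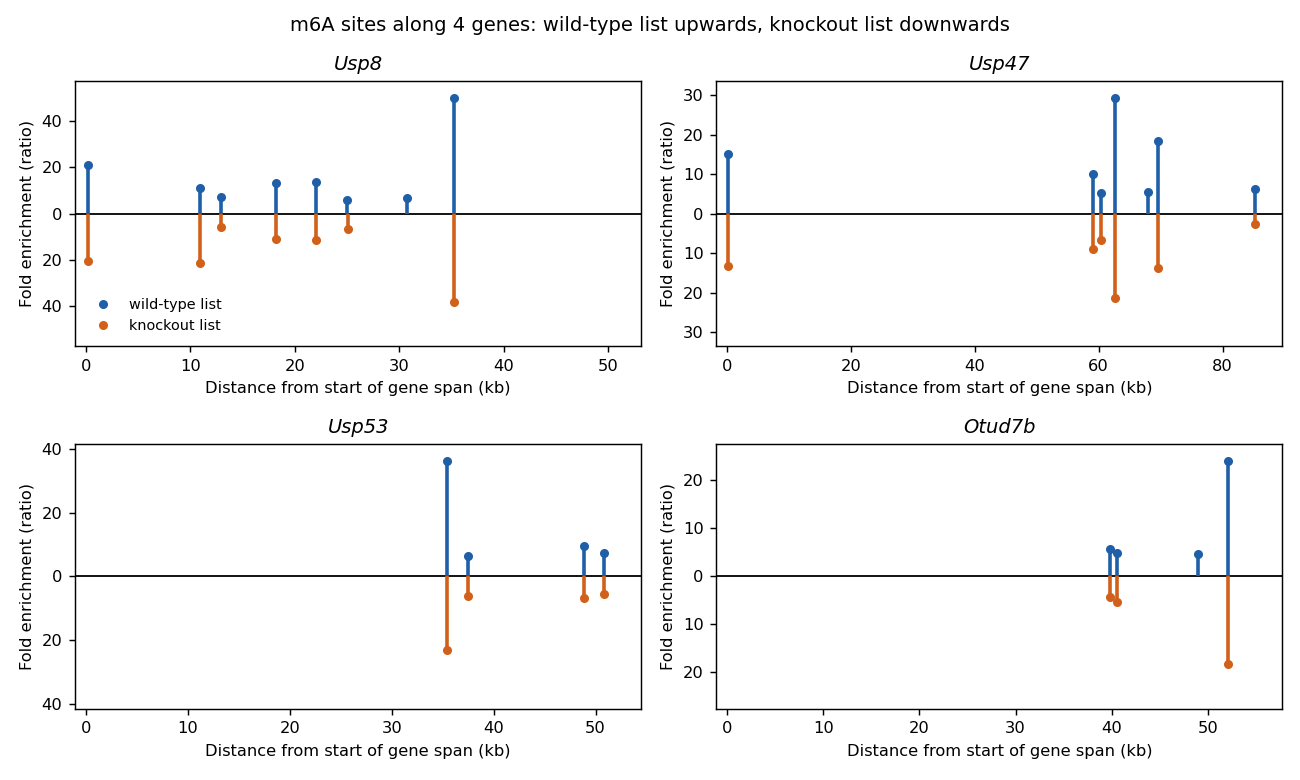
Fold enrichment (ratio) of each m6A site in Usp8, Usp47, Usp53 and Otud7b against its distance from the start of the gene span (kb), with wild-type sites drawn upwards in blue and knockout sites downwards in orange. The tallest site stands at the same place in both lists in all 4 genes, such as 49.8 and 38.0 in Usp8.

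Other members with several sites kept a similar layout. Usp53, a protein of tight junctions, had 4 identical sites in each list, with its strongest at fold 36.2 in the wild type and 23.1 in the knockout. Otud7b, or Cezanne, which prefers lysine-11-linked chains, had 4 wild-type and 3 knockout sites. Its strongest one was also the longest member site of the knockout list, 3612 bp there and 3608 bp in the wild type, with folds of 18.3 and 24. Usp34, which acts in Wnt signalling through axin, had neighbouring sites with wild-type folds of 30.2 and 33.5 and knockout folds of 17.1 and 27.6, and a further wild-type site of fold 5.73. Usp1, which deubiquitinates PCNA and FANCD2 together with Wdr48, had 3 sites in each list, with a strongest fold of 16.9 and 16.7. Usp16, a histone H2A deubiquitinase, had 3 sites in each list, of which 2 overlapped. Uchl5, a hydrolase bound to the proteasome, had 3 identical sites with wild-type folds of 7.97, 6.77 and 4.22 and knockout folds of 5.85, 4.82 and 6.55.

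Usp13, related to Usp5, carried 4 sites in the wild type and 3 in the knockout. The largest fold, 25.4, belonged to an interval of 4932 bp with a score of only 77.7 and no counterpart in the knockout list, while its 3 shared sites ran from 4.65 to 12.3 in the wild type and from 3.25 to 9.55 in the knockout. Otud6b had 2 wild-type and 3 knockout sites, and its strongest site had folds of 9.09 and 14.4, with scores of 1545 and 3100. Cyld, which removes lysine-63-linked and linear chains in NF-kappaB signalling, had 3 wild-type and 2 knockout sites, with shared folds of 9.44 and 8.55 at one site and 7.91 and 8.07 at the other.

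Usp25 and Usp30 were among the 5 members in both lists with more sites in the knockout list, against 11 with more in the wild-type list. Usp25 had 1 wild-type site of fold 8.18, matched at 10.2 in the knockout list, which held 2 more of fold 5.90 and 3.37. Usp30 sits in the outer mitochondrial membrane and opposes mitophagy driven by parkin. It had 1 wild-type site of fold 7.79 and score 51.4, which stood at 12 and 185 in the knockout list, and 2 further knockout sites of fold 11.7 and 9.39. That wild-type score is near the lowest score of any site in the list.

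Among genes with 2 or more sites in both lists, the sites of largest fold in the 2 lists overlapped in 11 of 14 members, against 73.8% of all such genes. The exceptions were Uchl5, Usp13 and Usp10, a deubiquitinase of p53 and a partner of the stress granule protein G3BP1. Usp10 had its stronger wild-type site at fold 8.0 (7.52 in the knockout), and its other site at 5.36 in the wild type and 12.3 in the knockout. The 2 lists held equal numbers of sites for 18 of the 34 members in both, against 69.6% of all genes in both lists. The wild-type list had more sites for 11 of the 34 members, against 16.9% of all genes, and the knockout list for 5, against 13.5%. Genes with 1 site were fewer among members, 45.7% against 58.7% of all genes in the wild-type list and 55.8% against 59.9% in the knockout list. Genes with several sites have more room for unequal numbers, and the part of this in the counts was not tested.

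The only member in the wild-type list alone was Otud4, an OTU protein linked to the repair of alkylated DNA. Its single site (plus strand of chromosome 8, 79672768 to 79674913) lay at 89.7% of the gene span. It was long (2146 bp), its fold was 9.66 and its score 1774. Over all genes whose strongest score was 200 or more, 4.41% were listed for the wild type alone.

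The 9 members in the knockout list alone had weak sites. Their 10 sites had scores from 61.3 to 199 and folds from 4.28 to 9.15. Of the 13 members whose strongest score was under 200, 9 were listed for the knockout alone, 4 for both (Usp30, Usp33, Usp39 and Usp43) and 0 for the wild type alone. Over all genes under 200, the knockout alone had 28.0% and the wild type alone 32.1%, and 919 of 2307 were in both lists. The limit of 200 lies just above the highest score of the 9, 199 at Stambp. It lies just below Uchl5, in both lists, at 203. The split of the members therefore depends on where the limit was placed, and no conclusion is drawn from it. Of the 31 stronger members, 30 were in both lists, and the remaining one was Otud4. Over all genes at 200 or more, 4036 of 4353 were in both lists and 2.87% in the knockout alone.

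**Figure D3:**
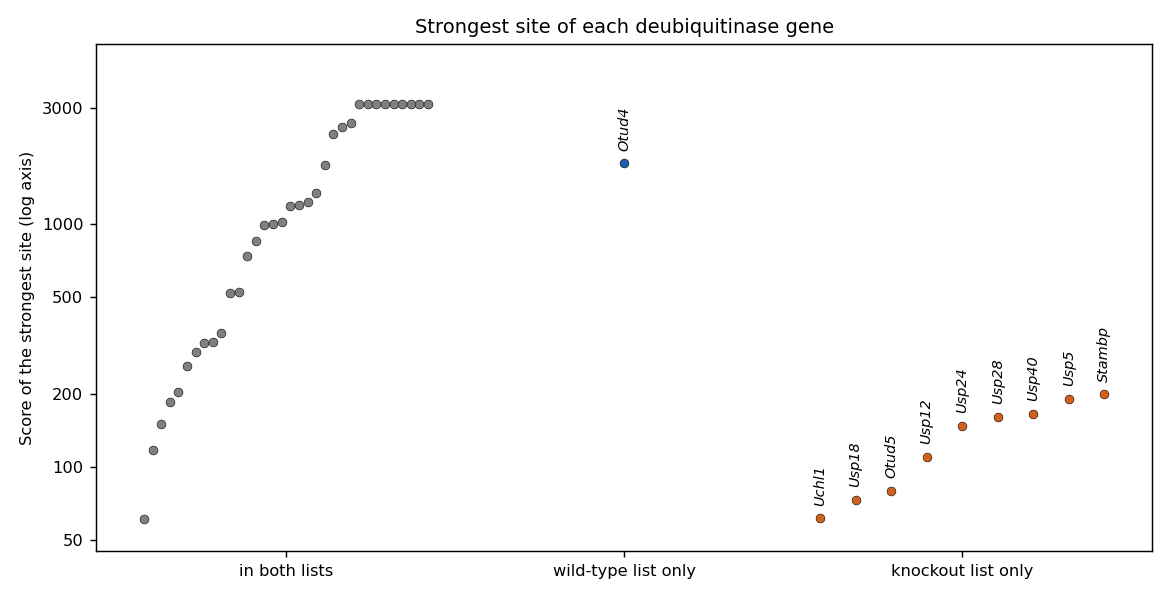
Highest score (minus 10 times log10 of p, log axis) per deubiquitinase gene, grouped by whether both genotypes, the wild type alone or the knockout alone had a site. The knockout-only genes lie between 61.3 and 199, below most genes in both lists, and Otud4 stands at 1774.

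Among these 9, Usp28, a stabiliser of Myc, had a site at its transcript start (fold 7.65, score 161). Usp40 had one at its start too (9.15 and 165), and so had Otud5, a regulator of TRAF3 and interferon (8.52 and 79.7). The site of Usp5, which disassembles unanchored ubiquitin chains, covered the first 200 bp of its annotated span on chromosome 6, from 124829285 to 124829484 on the minus strand (7.95 and 190). The sites of Usp28, Usp40 and Otud5 began on an annotated transcript start. For Otud5 it was an internal one, 2.22 kb into the gene span. The Usp5 site began on the first base of its span, which was not among the transcript starts used here. At the other end, Uchl1, an abundant neuronal hydrolase, had a site whose edge was the last base of its span (6.67 and 61.3). An edge on the last base of the span was found for 1 of 75 placed wild-type sites of the family (Uspl1), against 4.86% of all sites, and for 2 of 80 knockout sites (Uspl1 and Uchl1), against 4.72%. Usp12, another partner of Wdr48, had one at 95.7% of its span (4.28 and 110), and the large protease Usp24 had a pair at 92.5% and 94.3% (4.57 and 134, 6.92 and 147). Stambp, the endosomal JAMM protease AMSH, had a site on chromosome 6 from 83563823 to 83563918 at 36.7% of its span (7.84 and 199). Usp18, which removes the ubiquitin-like protein ISG15, had one at 64.9% (8.27 and 73.2). The Usp18 site also overlapped the lncRNA gene Gm44148, whose strand was not available. Among members in both lists, sites of Usp2, Usp47, Usp49 and Usp54 overlapped another gene too. For Usp2 and Usp54 it was an lncRNA gene on the opposite strand (Gm39325 and 1810062O18Rik). For the start site of Usp47 it was Gm3960, also without a strand.

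Sites were compared next. A site counted as shared when at least 1 bp overlapped a site of the other list on the same strand. In the wild-type list, 62 of 76 deubiquitinase sites were shared (81.6%, interval 71.0 to 89.6) and 14 were not, against 22.8% of all wild-type sites without a counterpart. In the knockout list, 62 of 81 were shared (76.5%, 65.8 to 85.3) and 19 were not, against 19.6% of all knockout sites. Both intervals included the share over all sites. The unshared wild-type sites were Otud4 and 1 site in each of 13 genes that were in both lists, and the unshared knockout sites were the 10 of the knockout-only genes and 9 in 7 genes of both lists. Sharing rose with the score, as it did over all sites. With a score of 500 or more, 33 of 33 knockout and 34 of 36 wild-type sites of the family were shared, against 97.2% and 96.3% of all sites. From a score of 100 to under 500 it was 23 of 35 knockout sites (65.7%, against 82.6% of all) and 15 of 21 wild-type sites (71.4%, against 78.1%). The 2 strong wild-type sites without a counterpart were Otud4 and a site of Usp9x, an X-linked protease that stabilises Mcl1, on chromosome X from 13166632 to 13166727 (fold 5.03, score 578). Under 100, 13 of 19 wild-type sites (68.4%, against 46.2% of all) and 6 of 13 knockout sites (46.2%, against 49.5%) were shared.

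The same interval, with identical start and end, was listed in both genotypes for 46 sites in 25 deubiquitinase genes. The median fold of these was 10.1 for the wild type and 8.50 for the knockout. The knockout fold was lower at 39 sites and higher at 7, with a median ratio of 0.798 (quartiles 0.710 and 0.928). Over all 5904 identical sites, 72.5% had a lower knockout fold and the median ratio was 0.831 (0.684 and 1.03). The lower knockout fold at 84.8% of the family's sites is therefore to be read against a list in which most sites were lower. Past a 2-fold difference lay 1 downward site, the last one of Usp47, against 5.93% of all identical sites, and 0 upward sites, against 1.12%. Of the scores, 24 were higher in the knockout list, 16 lower and 6 equal, and over all identical sites 2710 were higher, 2619 lower and 575 equal. Because strong sites share a top score of 3100, equal scores do not mean equal enrichment. The deposited false discovery rate was 100% for 61 of the 76 wild-type and 81 of the 81 knockout sites of the family. Over all sites it was 100% for 8960 of 10814 wild-type and 10385 of 10388 knockout sites, so this is a property of both lists. The wild-type sites below 100% were those with scores of 1431 or more, from 99.8% at a site of Usp1 to 83.3% at a score of 3100.

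**Figure D4:**
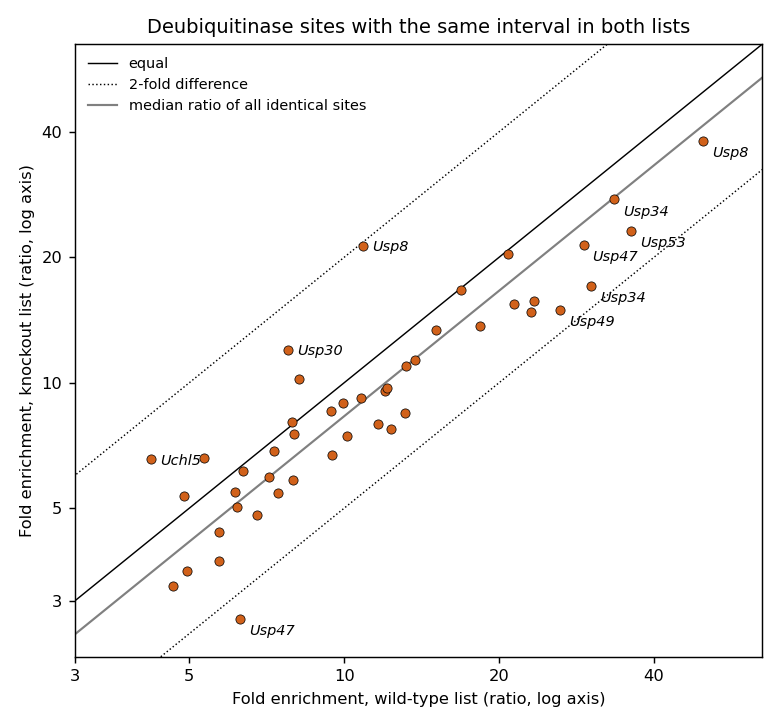
Fold enrichment in the knockout list against that in the wild-type list (ratios, both axes log) for the 46 deubiquitinase sites with the same interval in both. Most points lie between the line of equality and the lower dotted line of a 2-fold difference, around the grey line of the median ratio of all identical sites (0.831), with the second Usp8 site near the upper dotted line and the last Usp47 site below the lower one.

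Besides those of Usp8, Usp53, Usp34 and Usp47, the identical sites with the largest wild-type folds included that of Usp49, a histone H2B deubiquitinase, at its start site (26.3 in the wild type and 15.0 in the knockout), although a predicted gene, Gm20517, overlaps it on the same strand. Zranb1, or Trabid, the neighbour of the targeted gene, had 1 site, from 132949584 to 132950435 on chromosome 7, with folds of 23.4 and 15.7, a ratio of 0.669. Usp2, a protease linked to the circadian clock, had a ratio of 0.641 at its shared site (23.1 and 14.8), and its weaker sites lay in different places, from 44068038 to 44068295 in the wild type and from 44069429 to 44069531 in the knockout on chromosome 9. Usp42 had folds of 21.3 and 15.5 at a 2070 bp site. Higher knockout folds were found, besides Usp8, at the 3′-most site of Uchl5 (ratio 1.55), the start site of Usp30 (1.54) and that of Usp25 (1.25).

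Of the 34 members in both lists, 9 had overlapping sites with different edges and no identical one. Usp35 had the largest fold among them, 34.8 in the wild type and 19.2 in the knockout. Tnfaip3, the NF-kappaB inhibitor A20, had folds of 8.52 and 4.74, and the nucleolar Usp36 had 15.4 and 11.4 and a second, weaker wild-type site of 4.47. Usp31 had 15.8 and 9.01, Otud1 13.6 and 11.4, Usp4 8.65 and 7.12, Usp6nl 7.64 and 6.14 and Usp39 5.18 and 4.10. Only Usp43 was higher in the knockout among these 9, at 5.99 and 9.87. The remaining members in both lists had the following folds at an identical site. Usp15, which acts on the TGF-beta pathway, had a weaker identical site at 6.14 and 5.46, besides a stronger overlapping one at 12.5 and 10.6. Uspl1 stood at 11.7 and 7.97, Usp32 at 10.2 and 7.47, Usp54 at 13.1 and 8.45, and the main site of Usp9x at 12.1 and 9.72. Usp33, which acts on the beta2-adrenergic receptor, had 4.96 and 3.53 and a further knockout site of 9.07, and Otud3 had 5.70 and 3.73 and a further wild-type site of 7.0.

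Position along the gene was described by dividing each RefSeq gene span, introns included, into 5 equal parts. Part 5 held the most deubiquitinase sites, 27 of 75 placed wild-type sites (36.0%, interval 25.2 to 47.9) and 27 of 80 knockout sites (33.8%, 23.6 to 45.2), against 35.7% and 34.8% of all sites. Part 1 held 13 (17.3%, 9.57 to 27.8) and 19 (23.8%, 15.0 to 34.6), against 25.5% and 26.1%. Part 4 held 19 (25.3%, 16.0 to 36.7) and 18 (22.5%, 13.9 to 33.2), against 16.0% and 16.5% of all sites. Part 3 held the fewest, 6 and 4. The knockout interval for that part (1.38 to 12.3) lay just below the 12.6% of all knockout sites, and the wild-type one (2.99 to 16.6) included the share of all wild-type sites. Several sites of 1 gene count separately here, and Usp47 alone gave 5 of the wild-type and 4 of the knockout sites of part 4.

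**Figure D5:**
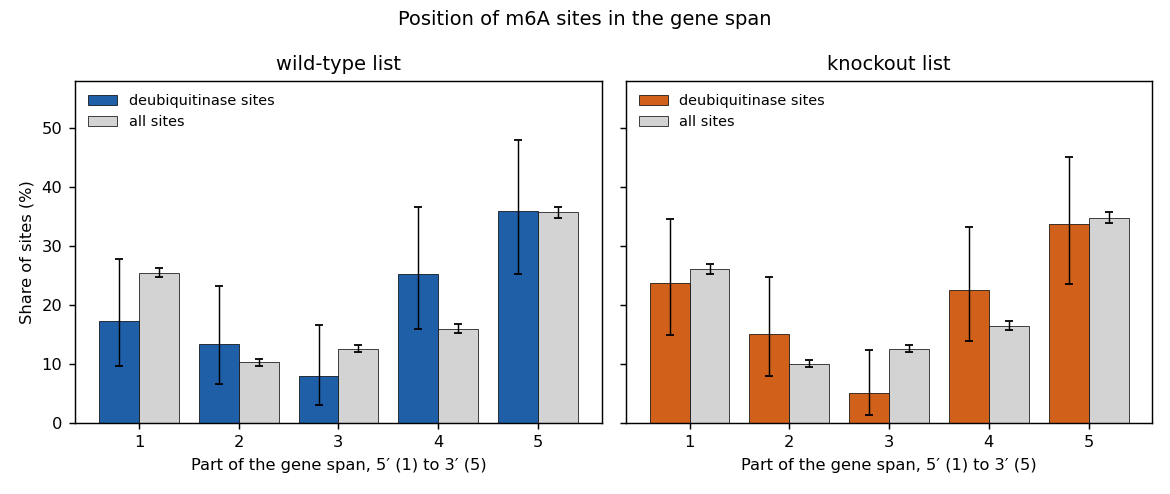
Share of sites (%) in each of 5 equal parts of the gene span, from 5′ (1) to 3′ (5), for deubiquitinase sites (coloured bars) and all sites (grey bars) in each list, with exact 95% binomial intervals that cover counting error only. In both lists the last part is the highest bar for the deubiquitinase sites, 36.0% and 33.8%.

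Other genes of the pathway were drawn from separate lists. Of 20 further genes related to deubiquitinases and outside the name pattern, 10 had a site, 7 in both genotypes, 3 in the wild type alone and 0 in the knockout alone. Not all of the 20, such as Pan2, Prpf8 and Psmd7, are active deubiquitinases. The 3 were Yod1 (fold 5.14), Mindy1, listed as Fam63a (5.36), and Pan2 (5.68). Mysm1, a histone H2A protease, and Vcpip1, which reassembles Golgi membranes with VCP, were in both. Of 33 partners and scaffolds, 17 had a site, 13 in both. Uimc1, which brings the nuclear Brcc3 complex to ubiquitin at DNA breaks, had a largest fold of 42.3 in the wild type and 28.5 in the knockout. The Brcc3 complex subunit Babam1 had 4 and 2 sites, and Abraxas1, Babam2 and Shmt2 had none in the lists used here. Among Bap1 partners, Asxl1 had 3 sites in each list (largest folds 34.3 and 16.7), and Asxl2 was marked in the knockout alone, with 2 sites of which the stronger had a fold of 6.53 and a score of 931. Spata2, the adaptor of Cyld, and Stam, the endosomal partner of Usp8 and Stambp, were listed for the wild type alone (5.48 and 5.58), and Tnip2, a partner of A20, for the knockout alone (3.77). These counts are to be taken out of the 10 and the 17 genes with a site. Of all genes with a site, 14% were listed for the wild type alone and 11.6% for the knockout alone.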

How the data were processed

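Per the labels' protocols, heart RNA was immunoprecipitated with an antibody against m6A and sequenced beside input RNA, with 1 immunoprecipitate and 1 input per genotype. Per the submitters' processing notes, cutadapt 1.9.3, HISAT2 2.0.4 and the mm10 build were used; the site names contain MACS, and its version and settings were not stated in any label or header read here. The authors deposited 1 list of sites per genotype, with a fold enrichment (a linear ratio of immunoprecipitate over input), a score of minus 10 times the log10 of the p-value, and a false discovery rate in percent, per the file headers. The labels' protocol names a directional library kit and the series' design text another stranded one. No read counts were used, so the sequencing depth is unknown. Symbols were matched by the pattern for deubiquitinase names. Overlap was counted with bedtools 2.31.1 from 1 bp on the same strand, checked on simulated intervals; shares have exact Clopper-Pearson 95% intervals, which cover counting error only. Tables were handled with pandas 2.3.3 and numpy 2.4.6 in Python 3.11.15, and intervals came from scipy 1.17.1. Gene spans and promoters came from RefSeq tables of GRCm38.p6, the assembly of mm10, which give no exons. Coordinates are 1-based. The members and gene lists were chosen with earlier results of these data known. The rule for names takes members in 1 list only, those with 3 or more sites, the 10 largest folds per list and identical sites past a 2-fold difference, and accounts for the rest by name. Usp9x and Otulin sites singled out below, and the setting without Usp6nl and Uspl1, were chosen after values were seen. The alternatives are a score minimum of 100, a fold minimum of 5, lists of equal length, assignment by gene span, 50% reciprocal or identical overlap, either strand, all overlapping pairs, centred ratios and whole sites within a part of the span.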

Additional observations from a re-analysis of the deposited data

How the results depend on the processing

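Of 150 values recomputed under alternatives, 135 stayed within 1.5 times the count, or within the interval or spread, of the value reported. Some of these could not move. A gene with 0 sites in a list keeps 0 when sites are only removed. The knockout list, the shorter one, keeps all its sites in lists of equal length. The 135 is therefore not a measure of robustness. With a score minimum of 100, 2 deubiquitinase genes were listed for the wild type alone, and with a fold minimum of 5 there were 4, against 14.5% and 17.6% of all genes, shares that the intervals then included. The 9 knockout-only genes were 9 under both minima and 11 in lists of equal length, but not the same ones: Otud5, Uchl1 and Usp18 lost their sites under the score minimum and Usp12 under the fold minimum. Requiring identical ends left 60.5% of wild-type and 56.8% of knockout sites shared, by construction. Counting all overlapping pairs put 1 site past a 2-fold higher knockout fold. Centring on the median ratio of all identical sites put 1 site past 2-fold higher and 0 past 2-fold lower. With the score minimum, 0 were past 2-fold lower, since the Usp47 site falls under it. Among the further genes related to deubiquitinases, the score minimum left 1 listed for the wild type alone and 2 for the knockout alone. Where not given by construction, the cause was not tested. No paired analysis was possible because each genotype has 1 list, and no replicate could be left out. Depth is unknown, so no limit of detection could be set.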

Other observations

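Otulin, the protease specific for linear ubiquitin chains, lies outside the name pattern and was singled out after its values were seen. It had 2 sites with identical ends in both lists, on chromosome 15 from 27623282 to 27623358 and from 27630458 to 27630693. The wild-type folds were 35.0 and 52.2, and the knockout folds 12.1 and 17.8, with ratios of 0.347 and 0.341. Of all identical sites, 0.796% had a ratio of 0.35 or less. That limit lies just above the 2 Otulin ratios, and both Otulin sites are among the 47 counted. Both Otulin sites kept high scores in the knockout list, 652 and 764, against 1183 and 1470 in the wild-type list. A further site in the wild-type list, given under the older symbol Fam105b, had a fold of 5.65 and no knockout counterpart. There was no replicate, so the difference was not tested.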
